A study of Mus musculus with 11 samples.

Results

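The renin-angiotensin and endothelin systems are a pair of peptide hormone pathways, listed here as 8 genes: Agt, Ace, Agtr1a, Agtr2, Edn1, Ednra, Ednrb and Ece1. Members were taken as rows of the expression table whose RefSeq accession maps to one of these symbols in the GRCm38 annotation. A row was found for 6 of the 8 among 21878 rows in all, and Agtr2 and Ece1 were not analysed here. The 11 heart samples came from female mice, 5 of a polycystic ovary syndrome (PCOS) model made by prenatal anti-Müllerian hormone (AMH) and 6 controls given vehicle, phosphate-buffered saline, before birth. All 11 samples carry the wild-type genotype label, and the labels used here name no age, strain, litter or batch. Nothing in them ties each sample to its own animal, so every p-value here is measured against sample-to-sample spread of which some may be technical. Levels are FPKM, which are scaled by transcript length and library total, so a level can be compared between genes.

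In the renin-angiotensin system the protease renin cuts angiotensinogen, the product of Agt, to angiotensin I, and angiotensin-converting enzyme (Ace) trims it to angiotensin II. Angiotensin II acts mainly on the AT1 receptor (Agtr1a), which couples to Gq proteins, raises calcium in vascular smooth muscle and promotes growth in cardiac cells, while the AT2 receptor (Agtr2) often opposes it. Endothelin-1 is made as a larger precursor (Edn1), mostly in endothelial cells, and is released by endothelin-converting enzyme (Ece1). Its ETA receptor (Ednra) on muscle cells constricts vessels, and its ETB receptor (Ednrb) on endothelium clears the peptide and evokes nitric oxide.

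The start regions of the 2 genes that encode the peptides are shown because each pathway begins with their transcription. RefSeq promoter sequences (GRCm38.p6) were given for 7 of the 8 genes. Each runs from 250 bases before the start site to 50 after it, 5′ to 3′ on the gene's strand, and capitals mark matches to the motifs searched. The Agt window is chr8:124569657-124569956 on the minus strand and the Edn1 window is chr13:42301226-42301525 on the plus strand.
Agt: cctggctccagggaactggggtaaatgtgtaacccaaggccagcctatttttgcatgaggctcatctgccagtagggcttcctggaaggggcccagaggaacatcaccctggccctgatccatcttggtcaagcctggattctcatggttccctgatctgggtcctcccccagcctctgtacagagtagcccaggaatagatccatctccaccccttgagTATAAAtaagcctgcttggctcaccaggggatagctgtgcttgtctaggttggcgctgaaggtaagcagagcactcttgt
Edn1: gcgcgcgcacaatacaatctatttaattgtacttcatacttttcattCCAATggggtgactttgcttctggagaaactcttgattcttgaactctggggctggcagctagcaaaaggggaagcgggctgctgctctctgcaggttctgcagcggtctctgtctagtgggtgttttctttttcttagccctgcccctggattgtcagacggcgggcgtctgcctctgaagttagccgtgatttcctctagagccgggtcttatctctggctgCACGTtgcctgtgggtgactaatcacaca
Both strands were searched for 5 motifs. The Agt window held 1 match, the TATA box motif TATAAA, beginning 30 bases before the start site, and 13.6% of the 32851 promoter windows hold that motif. The Edn1 window held the motif CCAAT beginning 203 bases before the start site, a motif in 37.4% of windows. It also held ACGTG, the core of the hypoxia response element, on the other strand from base 22 to 26 after the start site, a motif in 19.6% of windows. The GC box motif GGGCGG, held by 35.7% of windows, is in neither of these. The motif TGANTCA, searched for the AP-1 element and held by 7.81% of windows, is in neither as well. Variants of this motif were not searched. The matches do not overlap one another. Positions count from the RefSeq start site. A match is a description of the letters, and binding was not tested.

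Control replicate 6 holds liver transcripts and was the least similar library. Across genes on the log2(FPKM + 1) scale it correlated with the rest at a median r of 0.980, against 0.994 to 0.997 for the other 10 libraries. All 10 liver markers were highest there, with a summed level of 1948 FPKM, against 13.7 to 18.1 FPKM in PCOS samples and 8.44 to 26.1 FPKM in the other controls. Heart identity was clear in all libraries, with 7 cardiomyocyte markers summing to 33560 to 36212 FPKM in PCOS and 30078 to 34641 FPKM in controls. Between 11866291 and 14346620 reads per library were recovered from the steps of the FPKM values.

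No difference between PCOS and control hearts passed the test in any of the 6 measured genes. All 6 had a mean FPKM of at least 1 and were tested. By limma with Benjamini-Hochberg adjustment 0 of 6 passed, with adjusted p from 0.614 to 0.984, and 0 of 6 had an unadjusted p under 0.05. Over all tested rows 727 of 10891 had such a p, or 6.68%, and 2114 of 10815, or 19.5%, without control replicate 6, so a count of 0 among 6 says little. Limma's voom on the recovered reads also called 0 of 6. Among all 10891 tested rows 15 passed, or 0.138%, all of them higher in PCOS. Without control replicate 6, the basis for Agt, 32 of 10815 rows passed, or 0.296% (0.268% higher and 0.0277% lower in PCOS). That count was unstable: leaving out 1 further library gave 18 to 271 rows, the highest without control replicate 3 (147 higher and 124 lower) and 205 without PCOS replicate 4, and sample weights gave 249. For every one of the 6 genes the groups overlapped, while 0.698% of tested rows had no overlap (0.45% with PCOS above and 0.248% with PCOS below every control). The median log2 difference of the 6, PCOS minus control, was -0.01, beside 0.00 over all tested rows. In RNA from heart tissue, fewer cells of a type and less RNA per cell cannot be told apart.

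**Figure D1:**
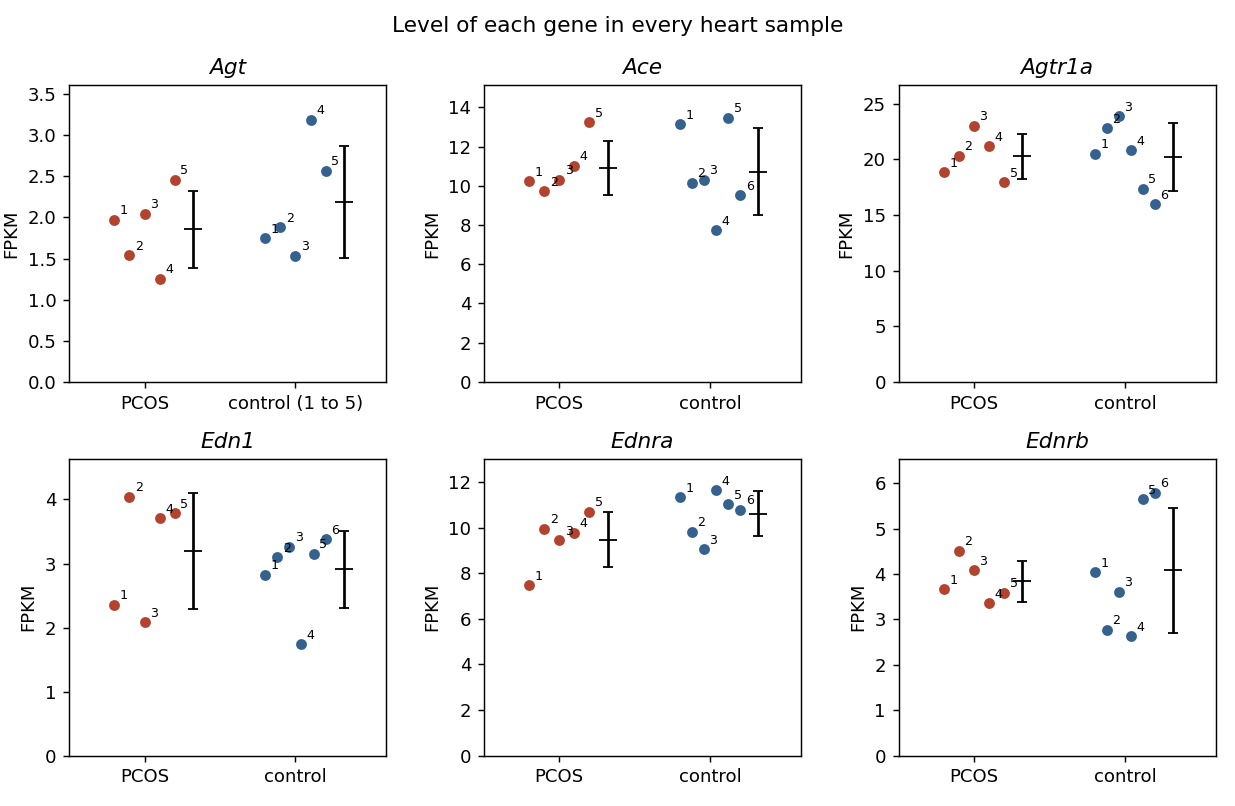
FPKM of the 6 measured genes in each heart sample, PCOS left and control right; points carry the replicate number, and the bar is the mean ± SD. The groups overlap in all 6 panels, and Ednrb ranges from 2.63 to 5.79 FPKM in controls around the PCOS samples. Control replicate 6 is left out for Agt.

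The level order, over the 10 samples without control replicate 6, was Agtr1a, Ace, Ednra, Ednrb, Edn1 and Agt. Agtr1a was highest in all 10, at 20.7 ± 2.17 FPKM (SD, n = 10), and its range did not meet that of Ace at 10.9 ± 1.84 FPKM. Ace and Ednra, at 10.01 ± 1.23 FPKM, were neighbours within their spread, with Ace above Ednra in 8 of 10 samples. Ednra lay above Ednrb, at 3.79 ± 0.868 FPKM, in 10 of 10 samples with no shared range. The ranges of Ednrb, Edn1 (3.01 ± 0.758 FPKM) and Agt (2.02 ± 0.577 FPKM) overlapped from one to the next. These levels are per length.

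Agt (NM_007428.3, chromosome 8 from 124556587 to 124569706) encodes the precursor of all angiotensin peptides and is made chiefly by the liver. It is given without control replicate 6, whose 8.68 FPKM stood beside the liver transcripts described above. In PCOS replicates 1 to 5 Agt was at 1.97, 1.54, 2.05, 1.26 and 2.46 FPKM, against 1.75, 1.88, 1.53, 3.19 and 2.57 FPKM in control replicates 1 to 5. Controls 4 and 5 were the highest of the 10, and the other values interleaved. The means were 1.85 ± 0.467 FPKM in PCOS and 2.18 ± 0.681 FPKM in controls (SD, n = 5 each), and the log2 difference was -0.15 (SE 0.15, 95% confidence interval -0.46 to 0.17, limma adjusted p = 0.614). Control replicate 4, the highest of these 10 in Agt, had the lowest liver marker sum of the same 10, at 8.44 FPKM. With all 11 samples the difference was -0.42 (adjusted p = 0.770), and without control replicates 4 and 6 it was -0.04 (adjusted p = 0.887). Each of the 10 values rests on only 30 to 74 reads, which alone gives a coefficient of variation of about 14.3%, against 28.6% observed.

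**Figure D2:**
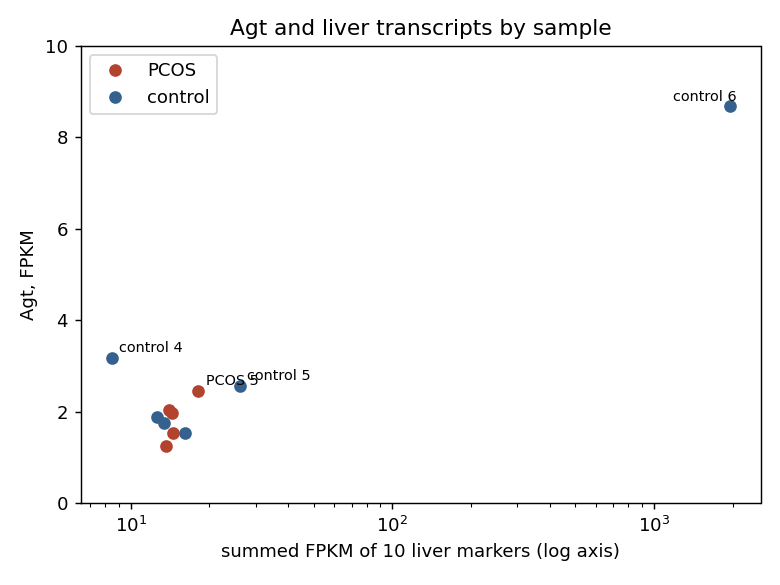
Agt level (FPKM) against the summed FPKM of 10 liver markers on a log axis, one point per sample; red is PCOS and blue is control. Control replicate 6 lies alone at 1948 FPKM of liver markers and 8.68 FPKM of Agt, while the other 10 samples lie at 3.19 FPKM of Agt or less.

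Edn1 (NM_010104.4, chromosome 13 from 42301476 to 42307990) encodes preproendothelin-1, the precursor of the vasoconstrictor peptide. In PCOS replicates 1 to 5 it was at 2.35, 4.04, 2.09, 3.71 and 3.78 FPKM, against a lowest, median and highest of 1.74, 3.13 and 3.38 FPKM in the 6 controls. PCOS samples 2, 4 and 5 lay above every control and PCOS samples 1 and 3 lay below all controls but control replicate 4. The means were 3.19 ± 0.903 FPKM in PCOS (SD, n = 5) and 2.91 ± 0.604 FPKM in controls (SD, n = 6). The log2 difference was 0.09 (SE 0.15, 95% confidence interval -0.24 to 0.42, limma adjusted p = 0.891), and it was -0.01 without control replicate 4. Between 47 and 111 reads stand behind a value.

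Ace (NM_001281819.1, chromosome 11 from 105967948 to 105989964) encodes the carboxydipeptidase of endothelial surfaces that makes angiotensin II and breaks down bradykinin. In PCOS replicates 1 to 5 it was at 10.2, 9.72, 10.3, 11.03 and 13.3 FPKM, against a lowest, median and highest of 7.74, 10.2 and 13.5 FPKM in controls. Control replicate 4 was the lowest sample, and all PCOS values lay inside the control range. The means were 10.9 ± 1.39 FPKM in PCOS (SD, n = 5) and 10.7 ± 2.21 FPKM in controls (SD, n = 6), with a log2 difference of 0.04 (SE 0.12, 95% confidence interval -0.23 to 0.30, limma adjusted p = 0.949). With 517 to 962 reads per sample, counting gives a coefficient of variation of about 3.64%, against 16.6% observed.

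Agtr1a (NM_177322.3, chromosome 13 from 30336356 to 30382867) encodes the main AT1 receptor of the mouse. In PCOS replicates 1 to 5 it was at 18.8, 20.3, 23.0, 21.2 and 17.9 FPKM, against a lowest, median and highest of 16.0, 20.7 and 23.9 FPKM in controls. PCOS samples again all lay inside the control range. The means were 20.3 ± 1.99 FPKM in PCOS (SD, n = 5) and 20.2 ± 3.05 FPKM in controls (SD, n = 6). The log2 difference was 0.01 (SE 0.10, 95% confidence interval -0.21 to 0.23, limma adjusted p = 0.984), and -0.05 without control replicate 6, the lowest sample. Agtr1b, which encodes a second AT1 receptor in rodents, was above 0 in only 1 of 11 samples, at 0.0336 FPKM in control replicate 2.

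Ednra (NM_010332.2, chromosome 8 from 77663029 to 77724452), the ETA receptor of muscle and mesenchymal cells, had the smallest unadjusted p of the 6 genes. In PCOS replicates 1 to 5 it was at 7.46, 9.94, 9.45, 9.77 and 10.7 FPKM, against a lowest, median and highest of 9.04, 10.9 and 11.6 FPKM in controls. PCOS replicate 1 lay below every control, and the other PCOS samples lay inside the control range. The means were 9.47 ± 1.21 FPKM in PCOS (SD, n = 5) and 10.6 ± 0.984 FPKM in controls (SD, n = 6). The log2 difference was -0.15 (SE 0.09, 95% confidence interval -0.34 to 0.04, unadjusted p = 0.108, limma adjusted p = 0.752). Without PCOS replicate 1 it was -0.08 (adjusted p = 0.996). Between 367 and 539 reads stand behind a value.

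Ednrb (NM_001136061.2, chromosome 14 from 103814615 to 103844508), the ETB receptor of endothelium, varied more among controls than among PCOS samples. In PCOS replicates 1 to 5 it was at 3.66, 4.51, 4.08, 3.36 and 3.59 FPKM, against a lowest, median and highest of 2.63, 3.83 and 5.79 FPKM in controls. Control replicates 5 and 6 lay above every PCOS sample and control replicates 2 and 4 below every one. The means were 3.84 ± 0.458 FPKM in PCOS (SD, n = 5) and 4.08 ± 1.37 FPKM in controls (SD, n = 6), and the coefficient of variation was 11.9% in PCOS and 33.6% in controls. That difference in spread was not tested. The log2 difference was -0.03 (SE 0.16, 95% confidence interval -0.38 to 0.31, limma adjusted p = 0.966), and 0.06 without control replicate 6.

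The balance of the endothelin receptors was set out within each sample, as a ratio tested over samples. Ednra exceeded Ednrb by 2.04 to 2.98 times in PCOS and by 1.86 to 4.43 times in controls. The mean log2 ratio was 1.30 ± 0.25 in PCOS (SD, n = 5) and 1.44 ± 0.49 in controls (SD, n = 6), a difference of -0.14 (exact two-sided permutation p = 0.580).

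**Figure D3:**
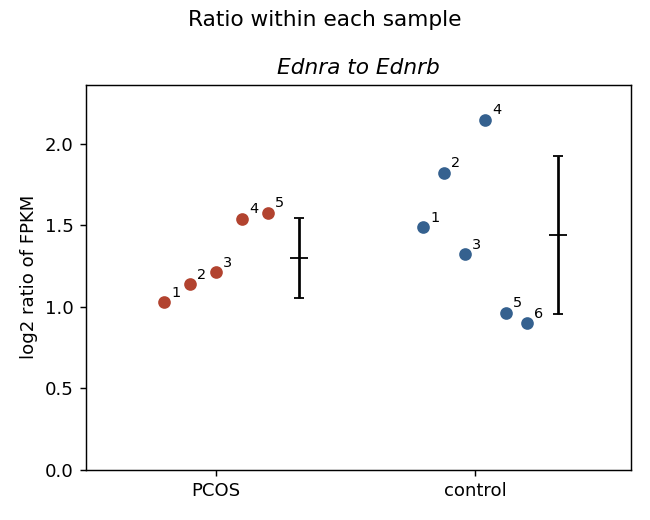
Log2 of the FPKM ratio of Ednra to Ednrb in each sample, PCOS left and control right; points carry the replicate number and the bar is the mean ± SD. The PCOS samples, at ratios of 2.04 to 2.98, lie inside the control range of 1.86 to 4.43.

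The other genes of the renin-angiotensin system were mostly low, and none passed the test. Of 28 listed genes 25 had a row and 12 were tested, and limma called 0 of the 12, with 1 at an unadjusted p under 0.05. Over all tested rows 0.138% were called and 6.68% had such a p, so these counts say little about the list. The median log2 difference of the 12 was 0.01, with 6 of 12 positive, beside 0.00 over all tested rows. The 12 include the kininogen gene Kng1, which passed the filter only through control replicate 6 and counts among the negative genes. Without that library 11 were tested, 0 were called and the median was 0.00. Renin itself (Ren1) had 0 reads in all 11 samples, which allows up to 3 reads in a library, counting error only. The receptor Mrgprd and the aldosterone synthase gene Cyp11b2 were likewise at 0 in all 11. Mas1, the receptor for angiotensin 1-7, had 5 to 32 reads per sample, at 0.248 ± 0.0840 FPKM in PCOS (SD, n = 5) and 0.166 ± 0.0652 FPKM in controls (SD, n = 6). Without the filter on low values the log2(FPKM + 1) difference of Mas1 was 0.10 (limma adjusted p = 0.817), and at such levels the +1 understates a change.

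The smallest p of that list belonged to Lnpep, an aminopeptidase also known as the angiotensin IV binding site. Lnpep was at 4.74 ± 1.05 FPKM in PCOS (SD, n = 5) and 6.39 ± 1.42 FPKM in controls (SD, n = 6), a log2 difference of -0.36 (SE 0.15, limma adjusted p = 0.738). Without control replicate 6 it was -0.46 (adjusted p = 0.108). Cathepsin A (Ctsa), a lysosomal carboxypeptidase that can process angiotensin I, was at 42.1 ± 1.95 FPKM in PCOS and 39.0 ± 1.40 FPKM in controls (log2 difference 0.11, SE 0.05, limma adjusted p = 0.738). The mineralocorticoid receptor (Nr3c2), which binds aldosterone, was at 3.07 ± 0.467 FPKM in PCOS and 3.94 ± 1.12 FPKM in controls. Its log2 difference was -0.25 (SE 0.17, limma adjusted p = 0.770), or -0.40 (adjusted p = 0.0825) without control replicate 6, in which it was lowest at 1.78 FPKM. Kng1, a liver gene, was at 23.6 FPKM in control replicate 6 and at or near 0 in the other 10, so it is left out of the plot of differences.

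**Figure D4:**
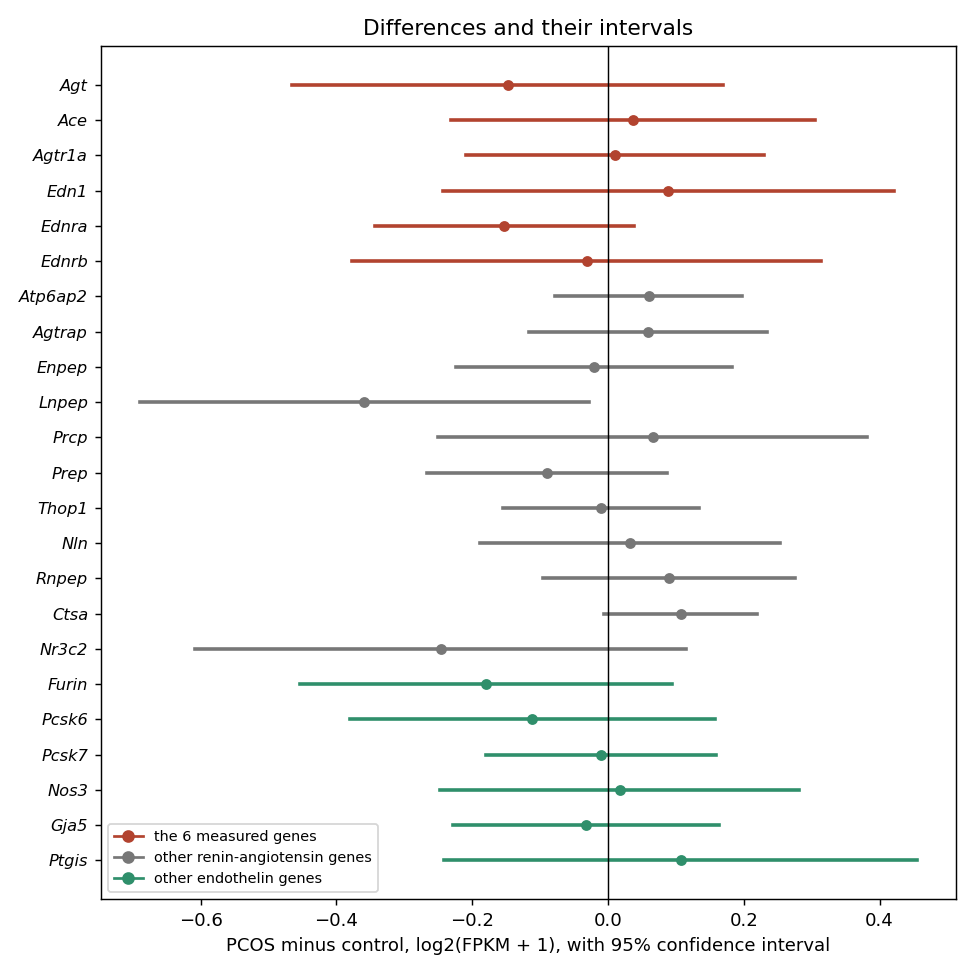
Log2(FPKM + 1) difference, PCOS minus control, with its 95% confidence interval (limma), for the 6 measured genes and the tested genes of the wider renin-angiotensin and endothelin lists except Kng1. Intervals of all but Lnpep include 0, and none of the genes shown passed after adjustment.

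The wider endothelin list, which holds precursor-cutting proteases and endothelial effectors, gave 0 calls as well. It had 14 genes, 12 with a row and 6 tested, of which limma called 0, with 0 at an unadjusted p under 0.05. The shares over all tested rows were 0.138% and 6.68%, so counts of 0 among 6 say little. The median log2 difference of the 6 was -0.02, with 2 of 6 positive. Furin, a convertase that can cut preproendothelin, was at 15.2 ± 1.58 FPKM in PCOS (SD, n = 5) and 17.6 ± 3.50 FPKM in controls (SD, n = 6; log2 difference -0.18, limma adjusted p = 0.774; -0.28 without control replicate 6, adjusted p = 0.156). Pcsk6, a related convertase, differed by -0.11 and Ptgis, prostacyclin synthase, by 0.11 (limma adjusted p = 0.834 and 0.872). Without control replicate 6 the difference of Ptgis was 0.21 (adjusted p = 0.433). Endothelin-3 (Edn3), a preferred ligand of the ETB receptor in development, had 5 to 26 reads, and endothelin-2 (Edn2) was above 0 in 2 of 11 samples.

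Receptor signalling genes and known transcriptional targets of the peptides gave no call either. Of 26 tested Gq signalling genes limma called 0, with 1 at an unadjusted p under 0.05. Over all tested rows 0.138% were called and 6.68% had such a p. Counts this small therefore say little, here and for the target genes below. The median log2 difference of the 26 was -0.04, with 9 of 26 positive, and it was -0.04 without control replicate 6 as well. Rock2, a kinase of contractile signalling, was at 13.8 ± 1.31 FPKM in PCOS (SD, n = 5) and 15.5 ± 1.09 FPKM in controls (SD, n = 6; log2 difference -0.16, limma adjusted p = 0.738). The receptor-desensitising Arrb2 differed by 0.18 and Rgs2, which limits Gq signals, by 0.27 (limma adjusted p = 0.742 for both). Without control replicate 6 the difference was -0.20 for Rock2, 0.19 for Arrb2 and 0.18 for Rgs2 (limma adjusted p = 0.159, 0.343 and 0.483). Gna12, which encodes a G protein other than Gq, then had the lowest adjusted p of the list, with a difference of -0.65 (limma adjusted p = 0.0969). With all samples Gna12 differed by -0.43 (limma adjusted p = 0.750). Of 22 tested target genes limma called 0, with 2 at an unadjusted p under 0.05, and the median was -0.04, with 9 of 22 positive. Without control replicate 6 the median over 21 tested genes was 0.00. Cybb, a subunit of the phagocyte NADPH oxidase, was at 1.68 ± 0.266 FPKM in PCOS and 1.03 ± 0.454 FPKM in controls (log2 difference 0.43, SE 0.15, limma adjusted p = 0.738). Cybb is also a macrophage gene, and 6 of 8 listed macrophage markers with a row summed to 240 to 342 FPKM in PCOS and 114 to 214 FPKM in controls. Limma called 1 of these 6, their median log2 difference was 0.53, and their part in the level of Cybb was not tested. Myc differed by -0.31 and the skeletal actin gene Acta1 by -0.50 (limma adjusted p = 0.738 for both).

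Markers of the cells that carry these receptors and enzymes also overlapped between the groups. Endothelial markers, 8 of 9 with a row, summed to 297 to 360 FPKM in PCOS and 229 to 412 FPKM in controls. Fibroblast markers, 7 of 7, summed to 297 to 356 FPKM in PCOS and 198 to 405 FPKM in controls. Smooth muscle and pericyte markers, 8 of 9, summed to 311 to 400 FPKM in PCOS and 276 to 407 FPKM in controls, or 276 to 313 FPKM in controls without replicate 6. Limma called 0 of 8 endothelial, 0 of 7 fibroblast and 0 of 8 smooth muscle and pericyte genes tested. Over all tested rows only 0.138% were called and 0.698% had no overlap, so these results say little about cell content. The part of these cells in the members' levels was not tested.

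No pair of the 6 genes had a correlation across samples that passed the test. Over the 10 samples without control replicate 6 all 15 pairs were correlated on the log2(FPKM + 1) scale. The smallest Pearson p was for Ace and Ednrb (r = 0.61, permutation p = 0.0608, adjusted over 15 pairs p = 0.469; Spearman coefficient 0.39, permutation p = 0.264, adjusted p = 0.630). Without the 2 samples farthest from the median of Ace, which also narrows the range of Ace, r was 0.02. Within groups the correlation was negative in PCOS and positive in controls, over only 5 samples each. The genes with the most similar profile, by Pearson r over the same 10 samples, are given as a description. They were Rsph3a and Lrg1 for Agt (r = 0.93 and 0.90), Rassf9 and Samd9l for Edn1 (0.95 and 0.92) and Sulf1 and Gas7 for Ace (0.98 and 0.96). For the receptors they were Lrrc3b and Cirbp for Agtr1a (r = 0.90 for both), Pomt2 and Wdr44 for Ednra (0.93 for both) and Zbtb2 and Stc1 for Ednrb (0.97 and 0.93). These values were picked as the highest among all tested rows and share libraries and depth.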

How the data were processed

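Per the labels' protocols, heart RNA was isolated by a mirVana kit, and a TruSeq stranded mRNA kit gave the libraries. Per the submitters' processing notes, reads were handled with HISAT2 2.2.1 and HTSeq 0.13.5, besides FastQC 0.11.9 and Trimmomatic 0.38, on mm10, and DESeq2 1.18.1 in R 3.4.1 is named; settings and the strand counted are not given in the sources used here. The authors deposited FPKM values, 1 per RefSeq gene model and sample. Of 21878 rows, 87.2% matched a symbol in the RefSeq table of GRCm38.p6. FPKM is relative within a library, so abundant transcripts can shift others.

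Whole reads were recovered from the FPKM steps in all 15939 rows above 0 in at least 3 samples, within 0.02 of a whole number, and the recovery was tested on simulated data. Groups were compared by limma 3.58.1 (R 4.3.3; trended eBayes) on values of log2(FPKM + 1), keeping rows of mean FPKM 1 or more, with p Benjamini-Hochberg adjusted over all tested rows. The +1 understates the change of low genes. Agt was fitted without control replicate 6. The ratio of Ednra to Ednrb had an exact permutation test, and a planned second ratio is not reported here. Genes named by rule are the 8 members, the 3 tested genes of smallest p in each list, and the 2 most similar rows per member. Low list genes, Gna12 and Kng1 were named after their values were seen. Members and lists were chosen with earlier results of these data known. Alternatives were another pseudocount, filters, scalings, the replicate block, sample weights, voom and leaving out samples.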

Additional observations from a re-analysis of the deposited data

Results flagged for a closer look

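Of 38 groups of samples checked for a value far from the rest, 3 held one, where chance flags about 1 in 20 groups. Edn1 in control replicate 4 was at 1.74 FPKM, while the other controls lay between 2.83 and 3.38 FPKM. Nr3c2 in control replicate 6, the library with liver transcripts, was at 1.78 FPKM, while the other controls lay between 3.81 and 4.73 FPKM. Myc in control replicate 5 was at 3.16 FPKM, while the other controls lay between 1.29 and 1.85 FPKM.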

How the results depend on the processing

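No member passed an adjusted p of 0.05 under any alternative run (lowest 0.397, for Agt), and each pathway list had 0 calls under each of its 20 alternatives. With 6 controls (5 for Agt) and 5 PCOS samples the 95% intervals of the members reach from -0.46 to 0.42 on the log2(FPKM + 1) scale. These limits belong to Agt and Edn1, which rest on few reads and whose change the +1 understates. With a pseudocount of 0.1 the difference of Agt was -0.21, against -0.15 as reported. Agt and Ednra kept their direction throughout. With the replicate number as a block, which also drops control replicate 6, Agtr1a differed by -0.0519 and Ednrb by 0.0608, against 0.01 and -0.03 as reported; with sample weights they differed by -0.0846 and 0.0502. Same-numbered samples share no stated animal or batch. Their deviations correlated at -0.118 to 0.254, and no PCOS sample was best with its own number. So few correlations cannot decide whether the numbers pair samples, and the main fit did not pair them. Leaving out 1 sample at a time gave ranges of -0.0440 to 0.102 for Ace, -0.0519 to 0.0582 for Agtr1a, -0.0104 to 0.193 for Edn1 and -0.120 to 0.0608 for Ednrb, each crossing 0. The difference in the log2 ratio of Ednra to Ednrb ranged from -0.250 to 4.15e-05 in the same way. The cause was not tested. Called rows over the whole table, 15 as reported, numbered 5 with a filter at 5 FPKM (6830 rows tested, Agt, Edn1 and Ednrb not among them), 27 with the replicate block, 25 with sample weights and 10 to 32 when 1 sample was left out, 32 being without control replicate 6.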

Other observations

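Mast cell proteases were singled out after their values were seen. Among them chymase is known as another route to angiotensin II, since it cuts angiotensin I. Cma1, a mouse chymase, was at 0.747, 0.721, 0.575, 1.27 and 1.54 FPKM in PCOS replicates 1 to 5, against a highest control value of 0.712 FPKM, and 4 of 5 PCOS samples lay above every control. It has 3 to 23 reads per sample and fell under the filter at a mean of 1 FPKM. The means of Cma1 were 0.971 FPKM in PCOS and 0.470 FPKM in controls. Without that filter its log2(FPKM + 1) difference was 0.41 (SE 0.13, limma adjusted p = 0.699), or 0.42 (adjusted p = 0.219) without control replicate 6. At such levels the +1 understates a change, for Cma1 and for the genes that follow. Cpa3, the mast cell carboxypeptidase, had 2 to 11 reads and a log2 difference of 0.26 (SE 0.08, limma adjusted p = 0.622), with 3 of 5 PCOS samples above every control. Its means were 0.443 FPKM in PCOS and 0.204 FPKM in controls. Mcpt4, another chymase, had 3 to 21 reads and differed by 0.20 (SE 0.21, limma adjusted p = 0.856). It also had 3 of 5 PCOS samples above every control, and Mas1 of the wider renin-angiotensin list had 4 of 5. Cathepsin G (Ctsg) was above 0 in 1 of 11 samples. The 5 mast cell markers summed to 2.40 to 5.26 FPKM in PCOS and 1.41 to 3.83 FPKM in controls, so the groups overlapped.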
